A study of Mus musculus with 21 samples.

Results

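The circadian clock genes described here are Clock, Per1, Per2, Per3, Cry1, Cry2, Nr1d1, Nr1d2, Dbp and Tef, read in mouse dorsal skin during 8 weeks of repeated ultraviolet (UV) irradiation. They were taken by name, as every probe set annotated to 1 of these symbols alone. This gave 24 of the 45101 probe sets of the Affymetrix mouse whole-genome array used, and all 24 passed the filter on low intensity. Total RNA of whole skin was hybridised to 21 arrays, 3 in each of 7 groups. In 5 groups the skin had been irradiated for 1, 2, 4, 6 or 8 weeks, with the dose raised each week by 1 minimal erythemal dose (MED, 100 mJ/cm2) up to 4 MED. The other groups were non-irradiated controls of week 1 and week 8. All mice were female Hos:HR-1 albino hairless mice, 6 weeks old on arrival and acclimated before the study. This strain carries no normal fur coat, and the control mice of week 8 were older than those of week 1. The hour of the day at which skin was taken is not given in the sources used here.

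The molecular clock is a feedback loop present in nearly every cell, skin cells included. The proteins CLOCK and BMAL1 (the product of Arntl) bind E-boxes and switch on the Per and Cry genes, whose products return to the nucleus and inhibit CLOCK and BMAL1. REV-ERB alpha and beta, the products of Nr1d1 and Nr1d2, repress Arntl in a second loop, and DBP and TEF, PAR bZIP factors whose genes are clock targets, bind D-boxes in output genes. Most of these transcripts rise and fall over each day, so that their level in a sample moves with the hour of collection.

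Intensities were those deposited by the study, set on the log2 scale, and the probe set with the highest mean over the 21 arrays stood for its gene. Groups were compared with limma, with p-values adjusted by Benjamini-Hochberg over 40540 probe sets, and a gene was called at an adjusted p of at most 0.05. The p-values measure the spread between arrays, which the series' design attributes to 3 animals a group. An exact permutation test of 3 arrays against 3 cannot go below 0.1 and was not used. Array medians lay between 30.1 and 33.3 intensity units, and arrays of 1 group correlated at 0.957 to 0.996 across probe sets. The log2 ratio of the 3' to the 5' beta-actin control probe sets, a sign of RNA integrity that grows as RNA degrades, was above 4 on 8 of 21 arrays. These were array 12 of control week 1, arrays 112 and 114 of UV week 1, array 333 of UV week 4, arrays 441 and 445 of UV week 6, and arrays 552 and 555 of UV week 8. The tissue label held, with 8 epidermal marker genes summing to 43157 to 101666 intensity units on every array.

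RefSeq promoter windows (GRCm38.p6, 250 bases before to 50 after each start site) were found for 9 of the 10 genes, Per2 being the exception, at 13 start sites. They were searched on both strands for the E-box CACGTG, the E'-box CACGTT, the D-boxes TTATGTAA, TTACGTAA and TTATGCAA, the REV-ERB element TAGGTCA and the cyclic AMP element TGACGTCA. Of all 32851 promoter windows, 7.15% held CACGTG, 4.68% CACGTT, 0.938% TTATGTAA and 0.743% TTATGCAA. An E-box or E'-box was present in 5 of the 9 genes (Per1, Cry1, Cry2, Nr1d1 and Tef) and a D-box in 2 (Per1 and Per3). No listed motif was found in the windows of Clock, Nr1d2 and Dbp. The 4 stretches below are shown because they hold the D-boxes that DBP and TEF can bind and the E-boxes of Tef and Cry1, both of which fell at UV week 8 against control week 1. Capitals mark the motifs, and AACGTG is CACGTT on the opposite strand. The Per3 stretch runs along the minus strand of chr4:151044786-151044885, Per1 along the plus strand of chr11:69098769-69098948, Tef along the plus strand of chr15:81802523-81802582 and Cry1 along the minus strand of chr10:85185085-85185154.
Per3: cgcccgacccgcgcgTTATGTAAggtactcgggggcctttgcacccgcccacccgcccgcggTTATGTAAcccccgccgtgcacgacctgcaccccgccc
Per1: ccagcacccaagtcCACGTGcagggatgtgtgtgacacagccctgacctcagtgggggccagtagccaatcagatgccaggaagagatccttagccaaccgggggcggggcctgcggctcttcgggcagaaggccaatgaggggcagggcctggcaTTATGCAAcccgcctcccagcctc
Tef: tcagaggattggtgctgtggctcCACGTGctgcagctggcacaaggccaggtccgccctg
Cry1: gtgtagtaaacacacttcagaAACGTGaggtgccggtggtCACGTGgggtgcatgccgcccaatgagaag
The 2 D-boxes of Per3 began 205 and 158 bases before its start site, and that of Per1 began 24 bases before its start site. A second start site of Tef also had an E-box, 138 bases upstream. These matches are descriptions of the sequence, and binding was not measured.

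After 8 weeks of UV, 5 of the 10 clock genes (Per2, Dbp, Nr1d2, Tef and Cry1) stood lower than in control week 1, 0 stood higher and 5 were not called, where 6.73% of all probe sets fell and 5.39% rose. Against the controls of the same week, 3 of these 5 (Per2, Nr1d2 and Cry1) were again lower, where 4.3% of all probe sets fell and 2.56% rose. Dbp and Tef were not called there, with non-irradiated skin of week 8 at 8.39 ± 0.06 and 8.64 ± 0.08 (SD, n = 3) against 9.52 ± 0.34 and 9.13 ± 0.29 in week 1. The 2 comparisons share the 3 arrays of UV week 8. The median log2 fold change of the 10 genes was -0.53 against control week 1 and -0.38 against control week 8, beside 0.09 over all probe sets in either comparison. In a fit to the compared groups alone, with fewer arrays behind the spread, Per2 against control week 1 was the only call left in either comparison (adjusted p = 0.0244). In whole skin, fewer cells of a type and less RNA per cell cannot be told apart. The hour of collection is not given for any group, and its part in these differences was not tested.

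**Figure D1:**
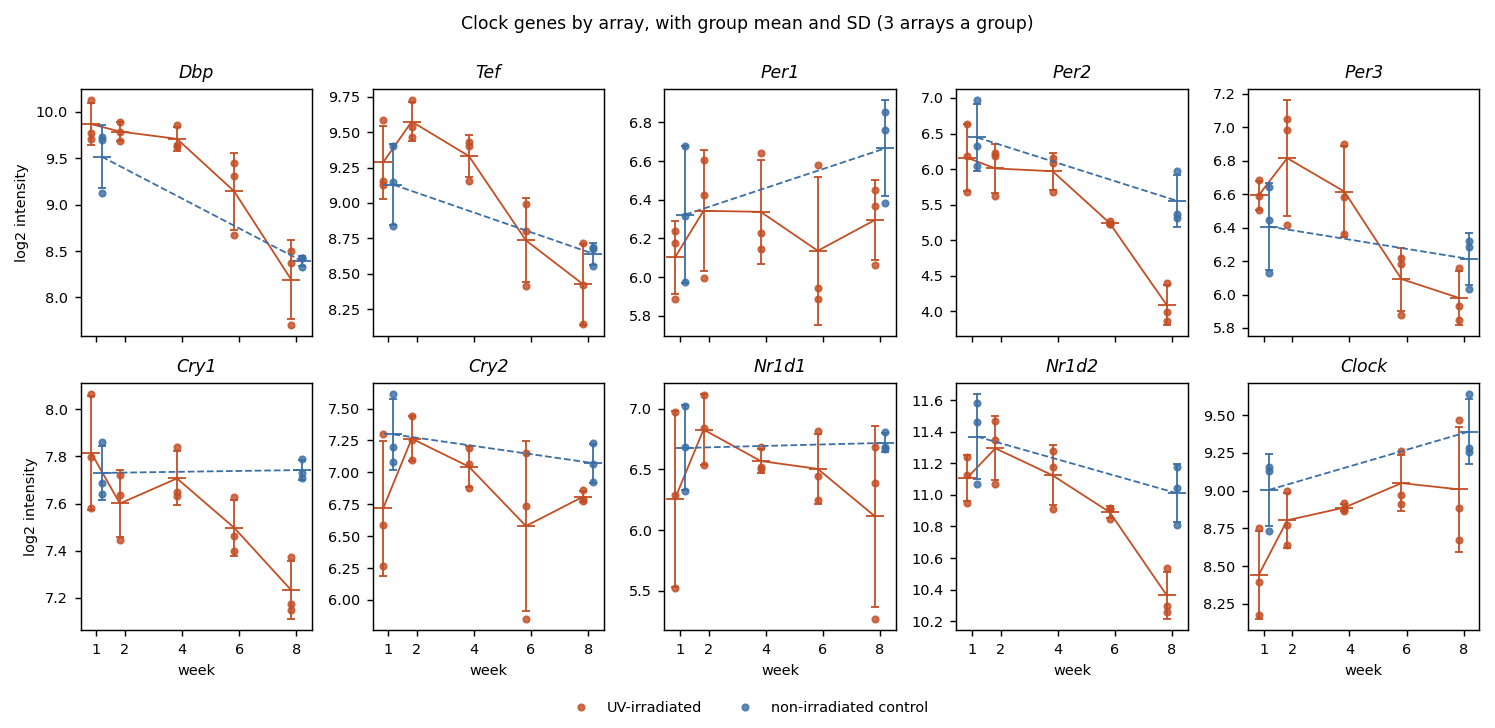
Log2 intensity of the 10 clock genes (y axis) by week (x axis), each at its probe set of highest mean. Points are arrays, horizontal marks and bars are group means ± SD (n = 3), solid lines join UV means and dashed lines join the 2 control means. Per2 falls to 4.09 ± 0.28 at UV week 8, against 5.55 ± 0.36 in control week 8, while Dbp at UV week 8 lies at the level of control week 8.

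The Period genes encode the repressors PER1, PER2 and PER3. At the probe set of highest mean, 1417602_at, Per2 read on the log2 scale 4.40, 3.87 and 4.00 on the arrays of UV week 8, against 5.97, 5.32 and 5.37 in control week 8 and 6.32, 6.97 and 6.05 in control week 1. All 3 irradiated arrays lay below all 6 controls and below every array of UV weeks 1, 2 and 4, whose lowest value was 5.62. Per2 was 2.76-fold lower than in control week 8 (log2 fold change -1.47 ± 0.26 SE, adjusted p = 0.00513) and 5.12-fold lower than in control week 1 (-2.36 ± 0.26, adjusted p = 7.4e-05). It was already lower at UV week 6, at 5.26, 5.23 and 5.23, all below the 3 arrays of control week 1 (-1.20 ± 0.26, adjusted p = 0.00938). That call was lost without array 13 of control week 1 (-0.94, adjusted p = 0.0697), which had the highest Per2 of all 21 arrays. The signal at UV week 8 was low, at the 25.9th to 42.3rd percentile of its array, and after 16 units were added to every intensity the log2 fold changes were -0.93 against control week 8 and -1.65 against control week 1, both still called.

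The other probe sets of Per2 did not follow. Probe set 1457350_at averaged 4.78 ± 0.32 at UV week 8, 4.50 ± 0.18 in control week 8 and 4.81 ± 0.27 in control week 1 (SD, n = 3 each). Probe set 1417603_at was higher at UV week 6, at 4.82 ± 0.36 against 4.28 ± 0.08 in control week 1 (log2 fold change 0.53, adjusted p = 0.0305). Read at the mean of its 3 probe sets, Per2 was lower than control week 1 at UV week 8 by only 0.74 on the log2 scale (adjusted p = 0.000925), and the difference from control week 8 was not called (-0.39, adjusted p = 0.0508). Read in that way, Dbp differed more than Per2 in both comparisons, by -1.45 against control week 1. Nr1d1 (-0.61, not called) and Cry1 (-0.51), with 1 probe set each, also differed more from control week 8.

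Per3 and Per1 moved less. Per3 averaged 5.98 ± 0.16 at UV week 8, 6.21 ± 0.15 in control week 8 and 6.41 ± 0.26 in control week 1, and neither difference was called at this probe set (adjusted p = 0.397 and 0.116). Of its 5 other probe sets, 2 were called lower against control week 1, 1421087_at (fell by 1.04 on the log2 scale, adjusted p = 0.0271) and 1442243_at (fell by 0.44, adjusted p = 0.0408). Neither was called against control week 8, at 5.25 ± 0.33 against 5.55 ± 0.16 and at 5.67 ± 0.14 against 5.79 ± 0.14. Control week 8 itself differed from control week 1 by -0.74 and -0.33 at these 2 probe sets. The 3 remaining ones had means of 3.42 to 4.15 and were called in 0 comparisons. Per1 read 6.45, 6.37 and 6.06 at UV week 8, against 6.76, 6.85 and 6.38 in control week 8 and 5.97, 6.68 and 6.32 in control week 1. The irradiated arrays overlapped with both controls, and the difference from control week 8 was -0.37 (95% interval -0.83 to 0.09). Per1 and Per3 are the 2 genes with a D-box in the stretches printed above.

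The cryptochromes CRY1 and CRY2 are the partners of the PER proteins. Cry1 read 7.17, 7.37 and 7.15 at UV week 8, against 7.73, 7.71 and 7.79 in control week 8 and 7.69, 7.86 and 7.64 in control week 1. The irradiated arrays lay below all 6 controls, which spanned only 7.64 to 7.86. The difference was 1.42-fold lower against control week 8 (log2 fold change -0.51 ± 0.13 SE, adjusted p = 0.0272) and 1.41-fold lower against control week 1 (-0.50 ± 0.13, adjusted p = 0.0200). Neither call held after quantile normalisation (-0.35, adjusted p = 0.145, and -0.33, adjusted p = 0.145). Against control week 8 the call was lost without any 1 of arrays 51, 53, 55, 552 or 555 (adjusted p = 0.0520 to 0.123), and against control week 1 without array 13 (adjusted p = 0.112) or array 555 (adjusted p = 0.0948).

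Cry2 read 6.86, 6.79 and 6.78 at UV week 8, against 7.07, 7.23 and 6.92 in control week 8 and 7.08, 7.61 and 7.20 in control week 1. The arrays did not overlap with either control, yet the differences were not called (-0.26, adjusted p = 0.521, and -0.49, adjusted p = 0.211). Arrays that did not overlap on the lower side were found for 4 of the 10 genes against control week 8 and for 6 against control week 1, where 9.82% and 8.33% of all probe sets had this pattern. At UV week 6 Cry2 spread widely, at 6.74, 7.15 and 5.85.

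Nr1d1 and Nr1d2 encode the REV-ERB repressors. Nr1d2 read 10.53, 10.30 and 10.26 at UV week 8, against 11.05, 10.81 and 11.17 in control week 8 and 11.07, 11.58 and 11.46 in control week 1. All 3 irradiated arrays lay below all 6 controls and below every array of UV weeks 1, 2 and 4. Nr1d2 was 1.57-fold lower than in control week 8 (log2 fold change -0.65 ± 0.15 SE, adjusted p = 0.0207) and 2.01-fold lower than in control week 1 (-1.01 ± 0.15, adjusted p = 0.000844). At UV week 6 it read 10.91, 10.91 and 10.85, below all 3 arrays of control week 1 (-0.48 ± 0.15, adjusted p = 0.0478). The same-week call was lost without array 51, 55, 552 or 555 (adjusted p = 0.0664 to 0.105), and the week 6 call without array 13, 16, 441, 443 or 445 (adjusted p = 0.0726 to 0.221). Its second probe set, 1416959_at, averaged 4.14 over the arrays and was called in 0 comparisons, and at the mean of both the same-week difference was -0.20 (adjusted p = 0.201).

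Nr1d1 read 6.68, 5.27 and 6.39 at UV week 8, against 6.68, 6.81 and 6.66 in control week 8 and 6.32, 6.68 and 7.02 in control week 1. Array 552 alone was far below the rest. The difference from control week 8 was -0.61 (95% interval -1.29 to 0.08, adjusted p = 0.232), an interval that holds both no change and the value of Nr1d2.

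At the probe set of highest mean, Dbp and Tef, the PAR bZIP genes, fell against control week 1 and lay near the level of control week 8. Dbp read 8.50, 8.37 and 7.70 at UV week 8, against 8.43, 8.43 and 8.33 in control week 8 and 9.12, 9.73 and 9.70 in control week 1. UV week 8 overlapped with control week 8 and lay below control week 1 entirely. The log2 fold change was -0.20 against control week 8 (95% interval -0.66 to 0.25, adjusted p = 0.545) and -1.33 ± 0.22 SE against control week 1 (2.51-fold lower, adjusted p = 0.00147). The second Dbp probe set, 1418174_at, moved the same way against control week 1 (-1.58, adjusted p = 0.0141). It averaged 5.37 ± 0.87 at UV week 8 against 6.00 ± 0.17 in control week 8 (SD, n = 3 each). That same-week difference, larger and more spread than at the first probe set, was not called.

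Tef read 8.71, 8.42 and 8.14 at UV week 8, against 8.69, 8.68 and 8.55 in control week 8 and 8.84, 9.40 and 9.15 in control week 1. It was 1.63-fold lower than in control week 1 (-0.70 ± 0.18, adjusted p = 0.0201), with no overlap, and differed from control week 8 by -0.22 (95% interval -0.60 to 0.17, adjusted p = 0.439). The call against control week 1 was lost without array 13, 16, 552 or 555 (adjusted p = 0.0585 to 0.126). Its other probe sets, 1450184_s_at and 1438033_at, were called in 0 comparisons, and at the mean of all 3 the difference was -0.08 (adjusted p = 0.625).

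Clock encodes the partner of BMAL1. It read 9.47, 8.67 and 8.88 at UV week 8, against 9.25, 9.28 and 9.64 in control week 8 and 8.73, 9.15 and 9.13 in control week 1. UV week 8 overlapped with both controls, and the difference was -0.38 against control week 8 (adjusted p = 0.204) and 0.00 against control week 1 (adjusted p = 0.991). At the probe set of highest mean, Clock was lowest in UV week 1, at 8.40, 8.18 and 8.75. Probe set 1435775_at was instead lowest in UV week 2, at 7.66 ± 0.15 (SD, n = 3). It averaged 7.90 ± 0.08 in UV week 1 and 7.96 ± 0.18 in control week 1. Probe set 1418660_at was lowest in UV week 1, at 7.76 ± 0.28 against 7.94 ± 0.04 in control week 1. Probe set 1439314_at, with a mean of 3.43 over the arrays, was lowest in UV week 6.

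**Figure D2:**
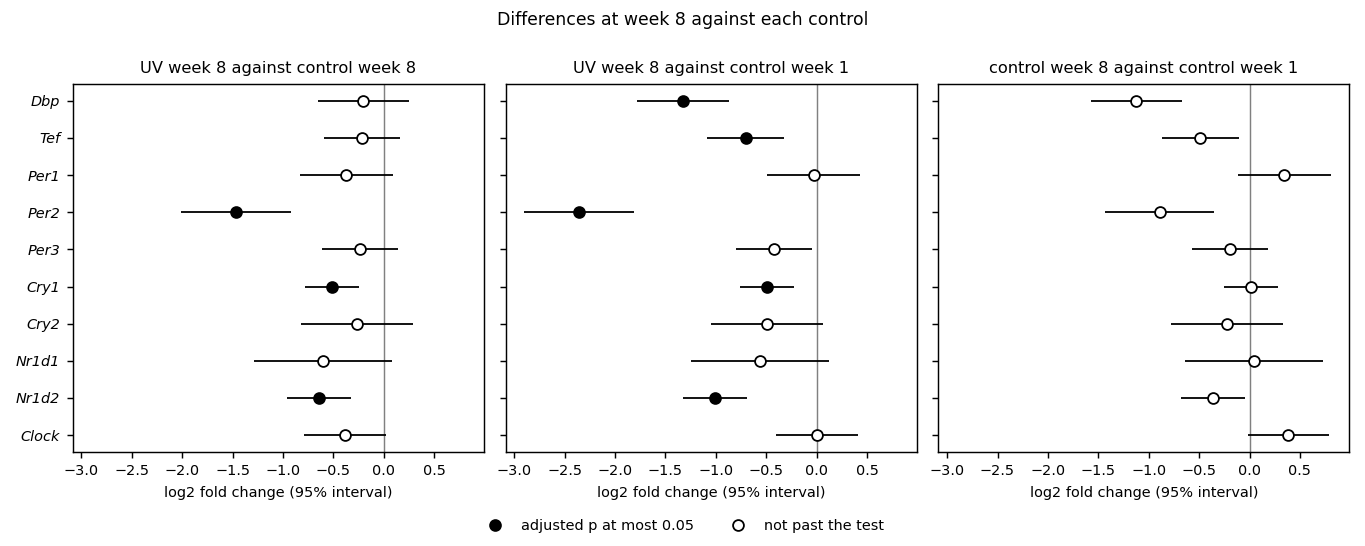
Log2 fold change with its 95% interval (x axis) of the 10 clock genes (y axis) for UV week 8 against control week 8, UV week 8 against control week 1, and control week 8 against control week 1. Filled points had an adjusted p of at most 0.05, which Per2, Nr1d2 and Cry1 reached in both irradiated comparisons, Dbp and Tef only in the middle one, and none of the 10 between the controls.

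The weeks before showed no called difference until week 6. Against control week 1, limma called 0 of the 10 genes at UV weeks 1, 2 and 4, where 0.0123%, 0.0617% and 1.13% of all probe sets were called. At an unadjusted p under 0.05, 2 genes were lower at UV week 1 (Clock and Cry2), 2 were higher at UV week 2 (Per3 and Tef), and 0 moved at UV week 4. The share of all probe sets in those directions was 9.38% and 2.96%, and at week 4 5.3% higher and 6.65% lower. Dbp averaged 9.87 ± 0.22, 9.79 ± 0.10 and 9.71 ± 0.13 at UV weeks 1, 2 and 4, against 9.52 ± 0.34 in control week 1. Its second probe set, 1418174_at, averaged 6.47 ± 0.69, 7.45 ± 0.16 and 6.97 ± 0.12 in those UV weeks, against 6.94 ± 0.67. Tef at UV week 2, at 9.54, 9.73 and 9.47, lay above all 3 arrays of control week 1, but was not called (0.45, adjusted p = 0.659). At UV week 6, Per2 and Nr1d2 were the 2 called genes, beside 11.7% of all probe sets. Per2, Nr1d2 and Cry1 were the 3 genes whose arrays all lay below control week 1, as did 13.6% of all probe sets. Dbp was then at 8.67, 9.31 and 9.45 and Tef at 8.41, 8.80 and 8.99, each overlapping with control week 1 (adjusted p = 0.236 and 0.145). No control of week 2, 4 or 6 was among the samples, so that UV and age cannot be told apart at these weeks.

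Between the non-irradiated groups limma called 0 of the 10 genes, beside 0.0592% of all probe sets. Dbp had the largest difference (-1.12 ± 0.22 SE, adjusted p = 0.0665), and its 3 arrays of control week 8 lay below all 3 of control week 1. Per2 (-0.89, adjusted p = 0.397) and Tef (-0.49, adjusted p = 0.736) did not overlap either, so that 3 of the 10 genes lay wholly below, beside 6.6% of all probe sets. Together with Nr1d2 (-0.36) these were the 4 genes lower at an unadjusted p under 0.05, where 2.62% of all probe sets were lower, and 0 were higher. Clock on the 3 arrays of control week 8 lay above control week 1 (0.39, adjusted p = 1.00). Without array 12 of control week 1, the one with the lowest Dbp of that group, Dbp was called (-1.32, adjusted p = 0.0436). Dbp and Per2 were the 2 of 10 genes that differed at least 1.5-fold between the controls, as 1.82% of all probe sets did. The study set such probe sets aside. Under that limit, 1 of the 3 genes that were called and at least 2-fold lower at UV week 8 than in control week 1 (2.49% of all probe sets) was left, Nr1d2, while Per2 and Dbp dropped out.

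The mean of all UV groups against the mean of both controls gave 1 higher gene, Dbp (0.38 ± 0.13 SE, adjusted p = 0.05), and 2 lower ones, Per2 (-0.51, adjusted p = 0.0345) and Clock (-0.36, adjusted p = 0.0416), beside 14.9% of all probe sets. For Dbp at the probe set read, this mean joins UV weeks 1, 2 and 4, all above both control means, with UV week 8 below them. Its second probe set, 1418174_at, averaged 6.47, 7.45, 6.97, 6.00 and 5.37 at UV weeks 1, 2, 4, 6 and 8. The control means of that probe set were 6.94 in week 1 and 6.00 in week 8, so that UV week 1 lay between them. Per2 and Clock were each called lower at 1 probe set alone, and Dbp was called higher only at the probe set read. Of the 24 probe sets of the 10 genes, 2 were called higher and 2 lower, the other higher one being of another gene. Dbp lost its call when any 1 of 18 of the 21 arrays was left out (adjusted p = 0.0548 to 0.123), Clock with any 1 of 16 (adjusted p = 0.0535 to 0.136), and Per2 with array 13, 51, 55 or 555 (adjusted p = 0.0501 to 0.145). The difference between the UV effect at week 8 and that at week 1 was called for 0 of 10 genes, beside 0.00247% of all probe sets. At an unadjusted p under 0.05, 2 genes had a lower effect at week 8, Per2 (-1.18 ± 0.37 SE, adjusted p = 0.995) and Cry1 (-0.59 ± 0.18, adjusted p = 0.954), beside 1.84% of all probe sets.

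**Figure D3:**
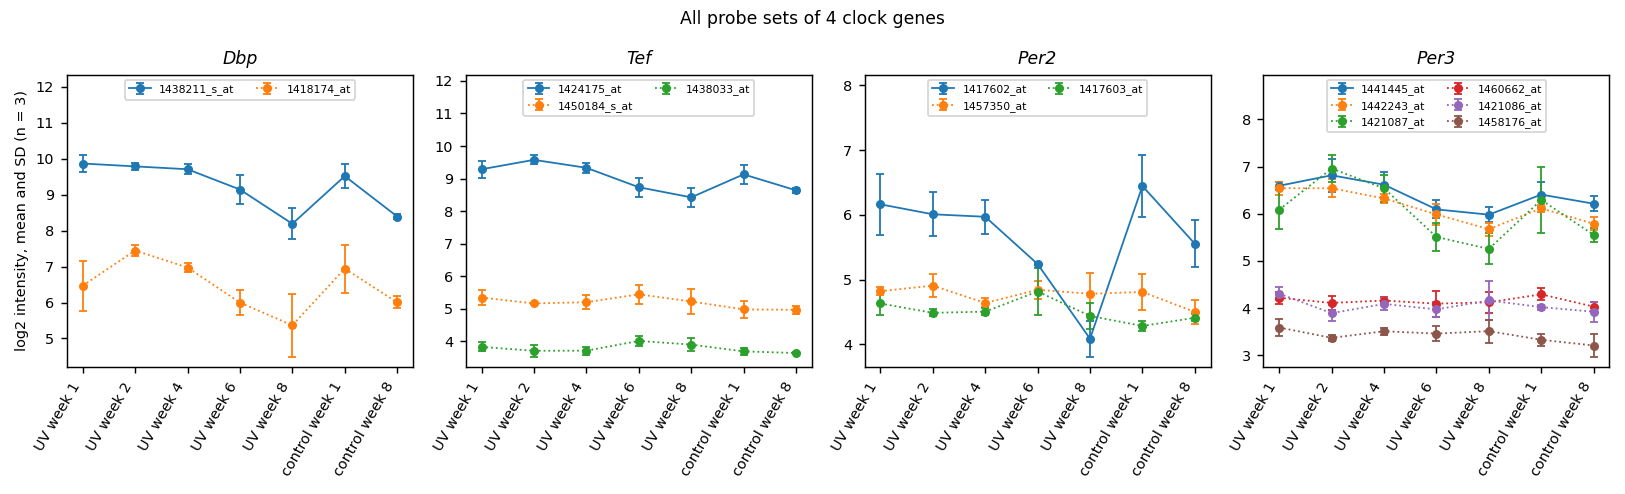
Mean log2 intensity ± SD (y axis, n = 3) of every probe set of Dbp, Tef, Per2 and Per3 in the 7 groups (x axis). The solid line is the probe set of highest mean. Both Dbp probe sets are lowest at UV week 8, while in Per2 only 1417602_at falls there, to 4.09.

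Outside the 10 genes, 31 of 33 other clock genes were analysed here. They covered partners of CLOCK, other regulators, kinases and ubiquitin ligases, and output genes. Against control week 8, 0 rose and 7 fell at UV week 8 (Arntl, Nfil3, Bhlhe40, Gsk3b, Tipin, Noct and Tsc22d3). Against control week 1, 1 rose (Npas2) and 4 fell (Nfil3, Hlf, Bhlhe40 and Tsc22d3). The shares of all probe sets that fell were 4.3% and 6.73%, and those that rose 2.56% and 5.39%. The median log2 fold change of the 31 genes was -0.16 and -0.29 in these comparisons, beside 0.09 over all probe sets in each. At UV week 6, 1 rose and 5 fell, beside 11.7% of all probe sets called in either direction, at UV week 4 0 rose and 2 fell, beside 1.13%, and at UV weeks 1 and 2 limma called 0. At an unadjusted p under 0.05, 1 was higher and 7 lower at UV week 1, where 9.38% of all probe sets were lower. At UV week 2, 0 were higher and 2 lower, where 2.96% of all probe sets were higher. The shares higher at UV week 1 and lower at UV week 2 are not given here. Of the 7 same-week calls, Bhlhe40 alone held without any 1 array. Gsk3b (-0.89, adjusted p = 0.0275) and Noct (-0.54, adjusted p = 0.0311) each lost theirs without array 51, 53, 55, 552 or 555 (adjusted p = 0.0618 to 0.149 and 0.0714 to 0.163), and Tipin (-0.52, adjusted p = 0.0129) without array 55, 552 or 555 (adjusted p = 0.0662 to 0.0696). Without the arrays of beta-actin ratio above 4, these 3 were not called either (adjusted p = 0.361, 0.489 and 0.234).

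Arntl, the gene of BMAL1, was highest in the group where non-irradiated Dbp was lowest. It read 7.52, 7.31 and 7.65 at UV week 8, against 7.96, 8.06 and 8.15 in control week 8 and 7.45, 6.98 and 6.95 in control week 1. The 3 arrays of control week 8 had the highest Arntl of all 21 arrays. Control week 8 was higher than control week 1 (0.93 ± 0.15 SE, adjusted p = 0.0256), and UV week 8 was lower than control week 8 (-0.56 ± 0.15, adjusted p = 0.0340), while UV week 8 was not called against control week 1 (0.37, adjusted p = 0.107). The first call was lost without any 1 of arrays 13, 16, 51, 53 or 55 (adjusted p = 0.0835 to 0.1504), and the second without any 1 of arrays 51, 53, 55, 552 or 555 (adjusted p = 0.0682 to 0.158). At the mean of its probe sets neither was called (0.51, adjusted p = 0.104, and -0.13, adjusted p = 0.434). Npas2, which can stand in for Clock, read 5.34, 6.48 and 5.64 at UV week 8, against 5.53, 5.55 and 5.56 in control week 8 and 5.19, 4.38 and 4.48 in control week 1. It rose against control week 1 (1.14, adjusted p = 0.0240), a call lost without array 13, 16, 552 or 555 (adjusted p = 0.0637 to 0.140).

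**Figure D4:**
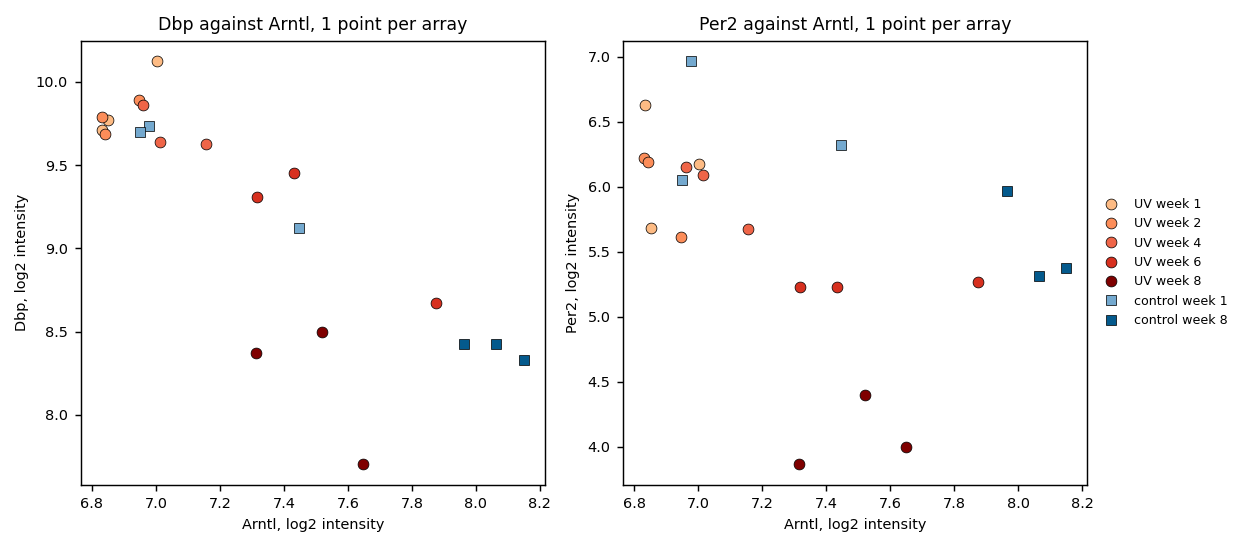
Log2 intensity of Dbp (left panel, y axis) and Per2 (right panel, y axis) against that of Arntl (x axis), 1 point per array, circles for UV groups and squares for controls. Control week 8 has the highest Arntl, 7.96 to 8.15, with Dbp at 8.33 to 8.43, while UV week 8 has Per2 at 3.87 to 4.40, below every control.

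Among the regulators, Bhlhe40, a repressor of CLOCK and BMAL1 targets, read 9.20, 8.81 and 8.77 at UV week 8, against 10.11, 9.95 and 9.86 in control week 8 and 9.51, 9.50 and 9.86 in control week 1. It fell against both (-1.05, adjusted p = 0.000688, and -0.70, adjusted p = 0.00517), and both calls held without any 1 array, but neither without the arrays of beta-actin ratio above 4 (adjusted p = 0.0729 and 0.226). Nfil3 (E4BP4), which competes with DBP and TEF for D-boxes, read 6.37, 5.79 and 5.84 at UV week 8, against 6.98, 6.75 and 6.67 in control week 8 and 7.16, 7.38 and 6.89 in control week 1. It was called lower at UV weeks 4, 6 and 8 against control week 1 (-0.998, -1.41 and -1.14, adjusted p = 0.0342, 0.00188 and 0.00491) and at UV week 8 against control week 8 (-0.80, adjusted p = 0.0409). Nfil3 already read below control week 1 at UV week 1 (6.02, 5.68 and 6.73) and UV week 2 (6.27, 6.33 and 6.45), where it was not called. The week 4 call was lost without array 12, 13, 331 or 333 (adjusted p = 0.0714 to 0.189), and the same-week call without array 51, 53, 55, 552 or 555 (adjusted p = 0.0925 to 0.171). Hlf, the third PAR bZIP gene, fell at UV weeks 6 and 8 against control week 1 (-0.62, adjusted p = 0.0363, and -0.72, adjusted p = 0.0188), and lost these calls without array 13, 16, 441, 443 or 445 (adjusted p = 0.0701 to 0.164) and without array 13, 16 or 555 (adjusted p = 0.0529 to 0.122). At UV week 8 Hlf read 6.26, 6.94 and 6.06, against 6.55, 6.68 and 6.84 in control week 8 and 6.96, 7.32 and 7.15 in control week 1. UV week 8 overlapped with control week 8 and was not called against it, while control week 8 lay below control week 1. Tsc22d3, an output gene that glucocorticoids also induce, fell at UV week 6 (-1.36, adjusted p = 0.00345) and UV week 8 (-1.29, adjusted p = 0.00381) against control week 1, and both calls held without any 1 array. Its fall against control week 8 (-1.05, adjusted p = 0.0198) was lost without array 51, 53, 55 or 555 (adjusted p = 0.0537 to 0.0789) and at the mean of its probe sets (-0.37, adjusted p = 0.130).

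Deviations from the group means over the 21 arrays were correlated for the 45 gene pairs, with 100000 permutations within groups and adjustment over the 45. After adjustment 2 pairs passed by Pearson's r and 1 by Spearman's rho. Dbp and Tef moved together most closely (Pearson r = 0.891, permutation p = 0.00041, adjusted p = 0.0185, Spearman rho = 0.852, permutation p = 0.00046, adjusted p = 0.0207). Without the 2 arrays farthest from the median, r was 0.881. Clock and Nr1d2 followed (r = 0.697, permutation p = 0.00158, adjusted p = 0.0356, rho = 0.717, permutation p = 0.0032, adjusted p = 0.0720). Cry1 and Nr1d1 had opposite signs (r = -0.600, permutation p = 0.0600, adjusted p = 0.329, rho = -0.671, permutation p = 0.0129, adjusted p = 0.168), which did not pass. The genes of most like pattern over all 21 arrays, group differences included, were Kansl1l (Pearson r = 0.81) for Dbp, Cyp4b1 (0.88) for Tef, Trip10 (0.84) for Per2, Tsc22d1 (0.91) for Nr1d2, Egr1 (0.78) for Cry1 and the clock gene Hlf (0.82) for Per3.

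The beta-actin ratio was set against each gene within groups. Cry2 tended to be lower on arrays of high ratio (r = -0.712, permutation p = 0.00747, adjusted over the 10 genes p = 0.0747, rho = -0.677, permutation p = 0.0091, adjusted p = 0.0910, r without the 2 farthest arrays = -0.685). Nr1d1 (r = -0.643, permutation p = 0.0338, adjusted p = 0.0979), Per1 (-0.586) and Clock (-0.585) ran the same way. Dbp (r = -0.453) and Tef (-0.519) had r of -0.705 and -0.723 without the 2 farthest arrays. Per2 (-0.222) and Cry1 (0.179) had r nearer 0. None of the 10 passed after adjustment. With the ratio as a covariate, the same 5 and 3 genes were called at UV week 8 against control week 1 and control week 8, with Per2 at -2.28 and -1.40. Without the 8 arrays above a ratio of 4, which leaves array 551 alone in UV week 8, 3 genes were called against control week 1 (Per2 -2.11, Dbp -1.22 and Nr1d2 -0.98) and 0 against control week 8 (Per2 -1.15, adjusted p = 0.152). That lone array was assumed to vary like the other groups.

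**Figure D5:**
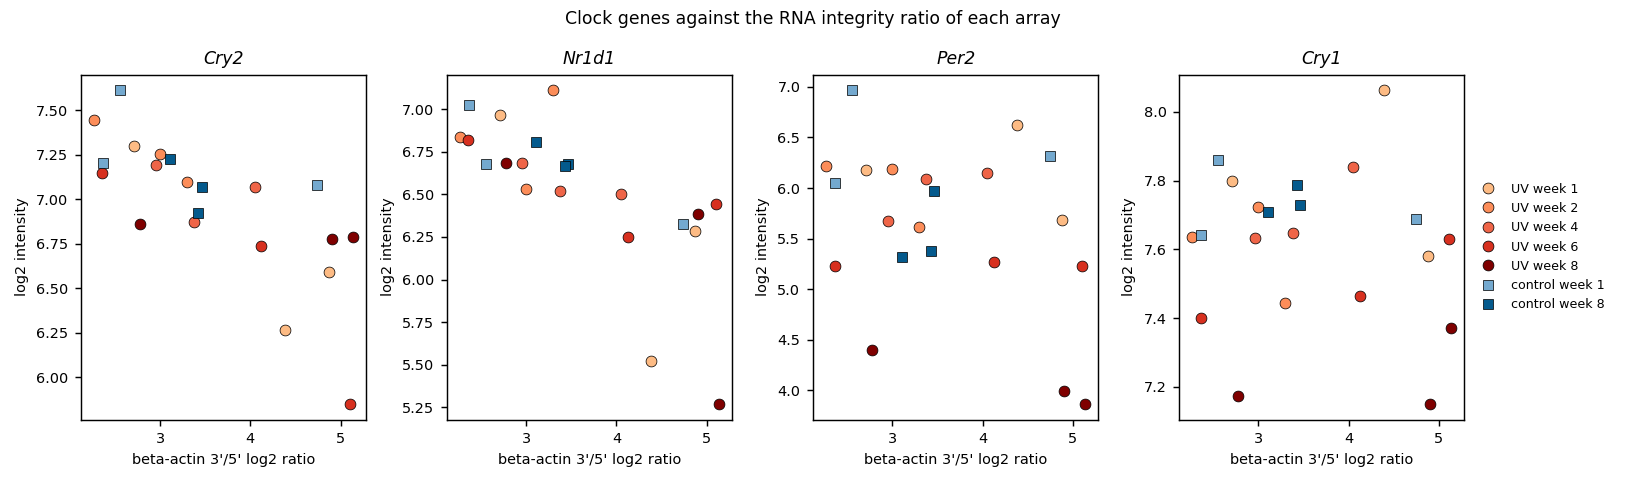
Log2 intensity of Cry2, Nr1d1, Per2 and Cry1 (y axes) against the beta-actin 3'/5' log2 ratio (x axes), 1 point per array, circles for UV groups and squares for controls. Cry2 and Nr1d1 are lowest on arrays with a ratio above 4, while Per2 at UV week 8 is 4.40 on the array of low ratio and 3.87 and 4.00 on those above 4.

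Cell type markers moved at UV week 8 as well. Against control week 1, 7 of 9 skeletal muscle markers, 5 of 6 adipocyte markers, 8 of 10 hair follicle markers, 3 of 7 fibroblast markers and 2 of 4 endothelial markers fell, with median log2 fold changes of -1.46, -1.38, -3.62, -0.71 and -0.43. Against control week 8, 3, 1, 2, 2 and 1 of these lists' genes fell. Of all probe sets, 6.73% fell against control week 1 and 4.3% against control week 8. Of the epidermal and the T cell list, 1 gene each fell in either comparison. Of the 7 myeloid and 4 proliferation markers, 0 were called in either. Their median log2 fold changes were -0.32 and 0.10 against control week 1, and -0.14 and 0.39 against control week 8. The summed muscle markers were 27943 to 42941 intensity units at UV week 8, 63789 to 66407 in control week 8 and 65830 to 79192 in control week 1. The summed adipocyte markers were 19940 to 27801, 29904 to 34753 and 35407 to 41155 in the same groups, and the hair follicle markers 622 to 7012, 11524 to 21145 and 30208 to 46079. The part of these cell types in the values of the clock genes was not tested.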

How the data were processed

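The series matrix holds probe set intensities on a linear scale, which the authors deposited for 21 arrays. Preprocessing is given as Microarray Suite 5 in the study's methods, but as RMA in the submitters' processing notes. The unlogged values, with no excess of values near 0 (lowest 4.35), leave this unsettled here. Groups came from the sample labels. Intensities below 1 would have been set to 1, and values were log2 transformed. Probe sets reaching the 20th percentile of their array in at least 1 array were kept and the 64 control probe sets left out, giving 40540 of 45101. A single symbol is annotated to 32317 of them, several to 853 and none to 7370. The 7 groups' means were estimated jointly by limma 3.58.1 under R 4.3.3 (lmFit, eBayes), tested on simulated data, with two-sided p-values and the Benjamini-Hochberg adjustment made over every kept probe set. The gene names come from GEO's platform annotation, and promoters from RefSeq. All 10 genes are named, with other clock genes and markers as lists. The number of arrays limits the precision. The members and lists were chosen with earlier results of these data known. Alternatives were no filter, quantile normalisation, a fit to the compared groups alone, the mean of a gene's probe sets, the beta-actin or Gapdh ratio as a covariate, log2(intensity + 16), and leaving out each array. Dropping those with a beta-actin log2 ratio over 4 was added after seeing the data. The "absent" detection calls were not used here.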

Additional observations from a re-analysis of the deposited data

How the results depend on the processing

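No paired analysis was possible because the labels give each array its own number and no number recurs in another group. No value of a called clock gene changed sign (0 of 224 values under the alternatives), while 61 of 1226 values that were not called did. The number of the 10 genes called at UV week 6 against control week 1, 2 as reported, was 1 after quantile normalisation, 1 in a fit to the compared groups alone, 0 at the mean of a gene's probe sets, 1 with the beta-actin ratio as a covariate and 0 without the arrays of beta-actin ratio above 4. At UV week 8 against control week 1, 5 as reported, it was 1 (Per2) in the fit to the compared groups alone, 3 without those arrays, 4 after quantile normalisation (Cry1 lost) and 4 at the mean of the probe sets (Tef lost). At UV week 8 against control week 8, 3 as reported, it was 2 after quantile normalisation (Cry1 lost), 0 in the fit to the compared groups alone, 1 at the mean of the probe sets and 0 without those arrays. Between the controls, 0 as reported, it was 1 (Dbp) with the beta-actin ratio, 1 with the Gapdh ratio and 1 without those arrays. For all UV weeks against both controls, 3 as reported, it was 1 at the mean of the probe sets, 6 with the Gapdh ratio, 1 with log2(intensity + 16) and 1 without those arrays. Leaving out 1 array at a time gave 0 to 2 genes at UV week 6, 3 to 5 at UV week 8 against control week 1, 1 to 5 against control week 8, 0 to 1 between the controls, 0 to 4 for all UV weeks, and 0 to 0 at UV weeks 1, 2 and 4 and for the difference of UV effects. The 5 genes against control week 8 came without array 551, when Clock and Nr1d1 joined the 3. A fit to 2 groups has fewer arrays behind its estimate of the spread; the cause of the other changes was not tested.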
